A study of Mus musculus with 6 samples.

Results

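The cadherin genes described here are Cdh1, Cdh2, Cdh3, Cdh4, Cdh5, Cdh6, Cdh10, Cdh11, Cdh13 and Cdh15, chosen by name, 10 of the 53801 Ensembl gene identifiers in the count tables. Hdac4 encodes a class IIa histone deacetylase, and the sequencing asked which genes change when it is reduced in MC3T3-E1 cells, pre-osteoblasts from mouse calvaria kept as an established line. Each of the 6 libraries came from cells that had been infected with a lentivirus and then selected with puromycin at 5 μg/mL for 7 days. The 3 Control libraries carried a scrambled non-silencing RNA, and the 3 Hdac4-knockdown libraries carried an Hdac4-shRNA, which the study's account gives as Hdac4-shRNA3. Both groups therefore carried the same vector, with its ZsGreen1 and puromycin resistance genes, and 1 hairpin against Hdac4 was sequenced. The labels describe 3 independent RNA samples per group and do not say that they came from separate infections, so that p-values measure the spread between these RNA samples.

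Cadherins are single-pass membrane proteins that hold neighbouring cells together through calcium-dependent binding of their extracellular repeats. In adherens junctions the cytoplasmic tail of a classical cadherin binds beta-catenin or plakoglobin (Jup) and p120-catenin (Ctnnd1), and alpha-catenin links this complex to actin. Cdh1 to Cdh4 and Cdh15 are type I cadherins, and Cdh5, Cdh6, Cdh10 and Cdh11 are type II cadherins, whereas Cdh13 (T-cadherin) is held in the membrane by a lipid anchor, has no catenin-binding tail, and is not a classical cadherin in the strict sense. Osteoblasts and other mesenchymal cells are known for Cdh11 (OB-cadherin) and Cdh2 (N-cadherin), and muscle precursors for Cdh15 (M-cadherin).

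The 2 hairpin sequences and the stretches upstream of 2 cadherin genes are shown because they carry the perturbation and the letters that the counts below refer to. The Hdac4-shRNA3 target lies in the coding sequence of Hdac4 (exon 3 or 4 of the 3 transcripts that hold it, of 12) at chr1:92029965-92029985 on the minus strand of GRCm38, and no transcript of another gene in GENCODE M21 holds all of its bases. Over the transcripts of each tested cadherin gene, the longest run shared with this target was 7 bases for Cdh2 and Cdh11, 8 for Cdh15, 9 for Cdh10 and 10 for Cdh13. Runs at least that long were held by 88.3%, 54.4%, 20.3% and 5.78% of 14510 tested genes. The hairpin sequences, as the treatment protocol in the sample labels lists them, were as follows.
Hdac4-shRNA3 target: gcatgaggcacagttgcatga
scrambled: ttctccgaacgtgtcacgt
The RefSeq promoter windows (GRCm38.p6, 250 bases before to 50 after a start site) held 3 of the 10 genes, namely Cdh6, Cdh10 and Cdh15. They were searched for CACCTG on both strands, which is the form of E-box bound by Snail and Zeb factors, and for CANNTG, the general E-box of basic helix-loop-helix factors, of which CACCTG is a special case and which reads the same on both strands. None of the 3 windows held CACCTG, against 20.2% of all 32851 windows, whereas 72.3% of them held CANNTG. Cdh15 held 4 CANNTG matches, a number reached by 6.49% of windows, Cdh10 held 5, reached by 2.1%, and Cdh6 held 1, the median of all windows. A match is a description of letters, and no binding was measured. For Cdh10, the 250 bases before the RefSeq start site, chr15:18820079-18820328 on the plus strand, are given with CANNTG in capitals. Another GENCODE M21 start of Cdh10 lies farther upstream, at 18818947, so this stretch is intronic in the transcripts that begin there.
Cdh10 before start: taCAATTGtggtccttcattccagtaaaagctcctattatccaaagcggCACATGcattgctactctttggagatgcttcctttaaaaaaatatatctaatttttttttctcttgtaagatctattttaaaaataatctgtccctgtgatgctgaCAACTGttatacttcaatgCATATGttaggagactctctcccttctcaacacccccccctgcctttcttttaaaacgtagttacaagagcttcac
For Cdh15, only 30 bases around each of the 3 upstream matches are given, on the plus strand, at chr8:122848126-122848155, chr8:122848227-122848256 and chr8:122848330-122848359 in that order, again with CANNTG in capitals. GENCODE M21 starts the Cdh15 transcript farther upstream, so these stretches lie inside its annotated first exon.
Cdh15 site 1: aggcactgatcaCATATGctgtcactcaga
Cdh15 site 2: caggcccacctaCATGTGctgtcactcatc
Cdh15 site 3: cgccccaccacaCACGTGcagtcccttggc

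Between 29096544 and 31651826 reads were counted on genes in each library. Hdac4 itself was counted 1243, 1204 and 1136 times in Control and 950, 927 and 887 times in Hdac4-knockdown libraries, which was 73.6% of the Control level (log2 fold change -0.44, edgeR adjusted p = 8.98e-07). Against the pre-osteoblast label, osteoblast markers were unevenly present. Col1a1 and Runx2 were well counted, but Alpl, Bglap and Ibsp reached at most 12 counts in any library. Skeletal muscle lineage markers were present in Control, with Des, the muscle intermediate filament, at 717 to 753 CPM (counts scaled to library size by the TMM method) and Myod1, the muscle determination factor, at 64.8 to 71.9 CPM. In bulk RNA, fewer cells of a type and less RNA per cell cannot be told apart, which holds for every level below.

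Knockdown libraries contained the cadherin transcripts in different proportions from Control libraries. Cdh11 was upregulated 37.0-fold, Cdh10 rose from a trace to 2.17 CPM and Cdh2 rose 1.42-fold, whereas Cdh15 fell 7.92-fold and Cdh13 3.34-fold. The first-ranking member per exon length was Cdh15 in Control and Cdh11 in Hdac4-knockdown cells. Of the 10 genes, 5 passed the filter on low counts. Cdh10 passed only through its counts in knockdown libraries, so that it could only be called higher. Of the 5, 3 were called higher and 2 lower (edgeR quasi-likelihood test, adjusted p below 0.05 and log2 fold change beyond 0.05). This comparison called 75.1% of all 14531 tested genes, 38% higher and 37.1% lower, so a call alone sets no gene apart. The balance of directions moved with the scaling, to 43.5% higher and 31.7% lower with upper quartile scaling and 41.3% and 33.7% with library size alone. In all 5 the 3 knockdown libraries did not overlap with the 3 Control libraries, as was the case for 76.8% of tested genes (38.8% higher and 38% lower). The two-sided exact permutation test gave p = 0.1 for each, the smallest value that 3 against 3 libraries allow. The median log2 fold change of the 5, Cdh10 included, was 0.50, against 0.014 for all tested genes.

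**Figure D1:**
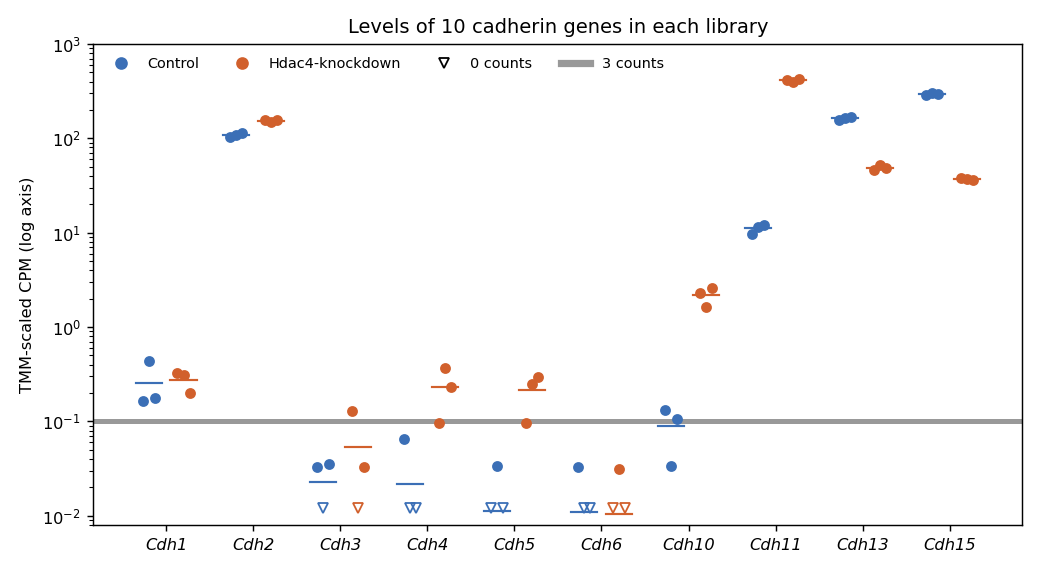
Level of each of the 10 cadherin genes in each library, as TMM-scaled CPM on a log axis, with Control libraries in blue, Hdac4-knockdown libraries in orange, short lines at the group means, open triangles for 0 counts and a grey band at the CPM of 3 counts. Cdh11 lies at 9.78 to 12.0 CPM in Control and 399 to 421 CPM in knockdown libraries, Cdh15 at 290 to 301 and 36.0 to 38.2 CPM, and Cdh1, Cdh3, Cdh4, Cdh5 and Cdh6 stay below 1 CPM throughout.

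Cdh15, M-cadherin, is a type I cadherin of satellite cells and myoblasts (chr8:122847966-122867397, plus strand, ENSMUSG00000031962). It was counted 8859, 9007 and 8387 times in the Control libraries and 1183, 1209 and 1084 times in the Hdac4-knockdown libraries. Every knockdown library lay far below every Control library, with little spread within either group. The level was 295 ± 5.54 CPM (SD, n = 3) in Control and 37.3 ± 1.13 CPM (SD, n = 3) in knockdown cells. The log2 fold change was -2.99 (SE 0.0455, edgeR adjusted p = 3.68e-21), which placed Cdh15 at rank 44 of all tested genes by p-value. All 10 skeletal muscle lineage markers, chosen for comparison, were lower as well, against 37.1% of all tested genes. Their median log2 fold change was -2.69, against 0.014 for all tested genes. Their summed level was 1118 to 1167 CPM in Control and 145 to 162 CPM in knockdown libraries. Among them, Myod1 fell by 2.92 and Des fell by 2.86 on the log2 scale, and Pax7, the satellite cell factor, was counted 28, 21 and 44 times in Control and 0, 1 and 0 times in knockdown libraries. Pax7 and Ckm passed the filter only through their Control counts, so they could only be called lower, and the median includes them. Ckm had 50, 43 and 26 counts in Control and 14, 10 and 9 in knockdown libraries. With at least 10 counts in every library, 8 markers were tested and all 8 were lower, against 37.4% of all genes tested there. The part of a change in cell make-up in the fall of Cdh15 was not tested.

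Cdh2, N-cadherin, is the type I cadherin shared by mesenchymal, neural and muscle cells. Its counts were 3180, 3245 and 3234 in Control and 4845, 4813 and 4696 in Hdac4-knockdown libraries. The groups were clearly apart, but the change was small beside that of Cdh11 or Cdh15. The level rose from 108.6 ± 4.70 to 154 ± 4.02 CPM (SD, n = 3 each), a log2 fold change of 0.50 (SE 0.0448, edgeR adjusted p = 4.50e-09). Among the tested type I members, Cdh2 rose where Cdh15 fell. The ratio of Cdh15 to Cdh2 per kb of exon went from 6.74 ± 0.269 in Control to 0.601 ± 0.0257 in knockdown libraries.

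The other type I members were barely counted. Cdh1, E-cadherin of epithelia, had 5, 13 and 5 counts in Control and 10, 10 and 6 counts in knockdown libraries, which overlapped. The ratio of its summed counts was 1.08 with a 95% exact counting interval of 0.592 to 1.98, so a change of up to about that size was not detectable at this depth. Cdh3, P-cadherin, had 1, 0 and 1 counts in Control and 4, 0 and 1 in knockdown libraries, and these also overlapped. Cdh4, R-cadherin, known from retina and kidney, had 2, 0 and 0 counts in Control and 3, 12 and 7 counts in knockdown libraries. All 3 knockdown libraries were above Control for Cdh4, at a count ratio of 10.5 with a counting interval of 2.58 to 92.1 and an exact permutation p of 0.1. These intervals cover counting error only. Of 12 epithelial markers, 4 passed the filter, of which Krt14 and Grhl2 were higher, Krt19 was lower and Krt8 was not called. Of all tested genes, 38% were called higher and 37.1% lower. Grhl2 (7, 9 and 2 counts in Control) passed only through its knockdown counts (59, 65 and 42), and Krt19 only through its Control counts. Epcam had no more than 2 counts in any library and Cldn3 none in all 6, while Krt19 went from 1116, 1185 and 1230 counts in Control to 1, 6 and 5 counts in knockdown libraries. The summed level of the list was 43.7 to 49.0 CPM in Control and 9.44 to 11.0 CPM in knockdown libraries. This fall was that of Krt19, at 36.5 to 43.2 CPM in Control and 0.0323 to 0.186 CPM in knockdown libraries. Krt14 rose from 5.62 ± 0.528 to 7.53 ± 0.769 CPM (SD, n = 3 each). The part of the list in the Cdh1 counts was not tested.

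Among the type II members, Cdh11 reached the highest level. OB-cadherin was first described in osteoblasts and marks mesenchymal cells (chr8:102632095-102785642, minus strand, ENSMUSG00000031673). It was counted 299, 345 and 343 times in Control and 12807, 12853 and 12659 times in Hdac4-knockdown libraries. No library came near the other group and both groups were tight. The level rose from 11.1 ± 1.18 to 411 ± 11.1 CPM (SD, n = 3 each), a log2 fold change of 5.21 (SE 0.0618, edgeR adjusted p = 1.11e-22). Cdh11 thereby ranked 13 among all tested genes by p-value and 195 by size of change. Of the 10 osteoblast markers chosen for comparison, 7 were tested, 5 of them higher and 1 lower (38% and 37.1% of all tested genes). The median log2 fold change of the 7 was 2.82. Among the 5, Sp7 (4, 7 and 2 counts in Control) and Dlx5 (4, 8 and 5) passed the filter only through their knockdown counts. Sp7 and Dlx5 could therefore only be called higher, and the median includes them. With at least 10 counts in every library, 5 markers were tested, 3 of them higher and 1 lower. The summed level of the list was 4779 to 4792 CPM in Control and 21446 to 22283 CPM in knockdown libraries. Col1a1, the main collagen chain of bone, rose by 5.03 and Dlx5, an osteoblast homeobox factor, by 5.41 on the log2 scale, while Spp1 (osteopontin) fell by 0.62. Runx2 rose by 0.19, but its groups overlapped and its call was lost without Control replicate 2 (edgeR adjusted p = 0.0731).

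Cdh10 (T2-cadherin), a type II cadherin best known from the brain, was close to the limit of counting in Control, at 4, 1 and 3 counts. In Hdac4-knockdown libraries it reached 71, 52 and 78 counts, each far above every Control library. The level was 0.0899 ± 0.0505 CPM in Control and 2.17 ± 0.501 CPM in knockdown cells (SD, n = 3 each), a log2 fold change of 4.53 (SE 0.423, edgeR adjusted p = 9.18e-09). Because Control counts were so few, the ratio of summed counts, 24.0, had a wide counting interval of 11.9 to 56.3. In relative terms the change of Cdh10 approached that of Cdh11, but per kb of exon Cdh10 stayed at 0.216 ± 0.0499 CPM against 46.2 ± 1.25 CPM for Cdh11 in the same libraries. Neural and glial markers did not move together, since S100b was higher, Sox2, Tubb3 and Map2 were lower, and Sox10 and Elavl4 were at 0 in every library. S100b (5, 3 and 0 counts in Control) passed the filter only through its knockdown counts (87, 68 and 61). The summed level of the list was 206 to 212 CPM in Control and 90.8 to 99.9 CPM in knockdown libraries.

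Of the remaining type II members, Cdh5, VE-cadherin of endothelial junctions, had 0, 1 and 0 counts in Control and 3, 8 and 9 counts in knockdown libraries. The groups did not overlap (exact permutation p = 0.1), and the count ratio was 19.1 with a counting interval of 3.05 to 791. Endothelial markers were mostly absent, with Cldn5 and Emcn at 0 in every library. Of 10, 2 passed the filter, Pecam1 (6, 7 and 6 counts in Control) and Vwf (3, 8 and 6). They passed only through their knockdown counts (72, 75 and 75, and 104, 113 and 74). Both were called higher, as were 38% of all tested genes, but no other call was open to them. The summed level of the list was 0.393 to 0.802 CPM in Control and 5.42 to 6.88 CPM in knockdown libraries. The part of other cell types in the few Cdh5 counts was not tested. Cdh6, K-cadherin of the kidney, had 1 count in a single library of each group. With no filter beyond 1 count, Cdh4 (adjusted p = 0.0113) and Cdh5 (adjusted p = 0.00714) were also called higher by edgeR, at which setting 22.3% of 28015 genes were called higher. DESeq2 gave the same 2 further calls, with 27.6% of 20263 genes called higher.

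Cdh13, T-cadherin, is the lipid-anchored member, known as a receptor for adiponectin (chr8:118283733-119324921, plus strand, ENSMUSG00000031841). It was counted 4781, 4973 and 4779 times in Control and 1437, 1675 and 1461 times in Hdac4-knockdown libraries. All knockdown libraries were low and all Control libraries high, with knockdown library 2 the highest of its group. The level fell from 163 ± 6.08 to 49.0 ± 2.79 CPM (SD, n = 3 each), a log2 fold change of -1.74 (SE 0.0505, edgeR adjusted p = 8.21e-17). Per kb of exon union, the ratio of Cdh2 to Cdh13 was 0.926 ± 0.0169 in Control and 4.39 ± 0.355 in knockdown libraries. The Control value depends on the length used, since per kb of the longest transcript Cdh13 stood at 35.8 ± 1.33 and Cdh2 at 22.4 ± 0.971 CPM in Control.

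Levels of different genes can be compared only per length, so CPM were divided by the length of the union of annotated exons. In Control, Cdh15 came first with 90.75 ± 1.70 CPM per kb, followed by Cdh13 with 14.5 ± 0.541 and Cdh2 with 13.5 ± 0.583, whose ranges over 3 libraries overlapped. Cdh11 came next with 1.25 ± 0.132 CPM per kb and Cdh1 with 0.0564 ± 0.0334. From Cdh10 downwards, through Cdh3, Cdh4, Cdh5 and Cdh6, each neighbour in the order overlapped with the next, all with means below 0.01 CPM per kb. In Hdac4-knockdown libraries the order began with Cdh11 at 46.2 ± 1.25 CPM per kb, then Cdh2 at 19.1 ± 0.499, Cdh15 at 11.5 ± 0.349, Cdh13 at 4.36 ± 0.249 and Cdh10 at 0.216 ± 0.0499. None of these neighbours overlapped. Cdh1, Cdh5, Cdh4, Cdh3 and Cdh6 followed, each overlapping with the next. Per kb of the longest transcript, however, Cdh15 (11.5 ± 0.349) and Cdh13 (10.7 ± 0.612) overlapped in knockdown libraries.

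**Figure D2:**
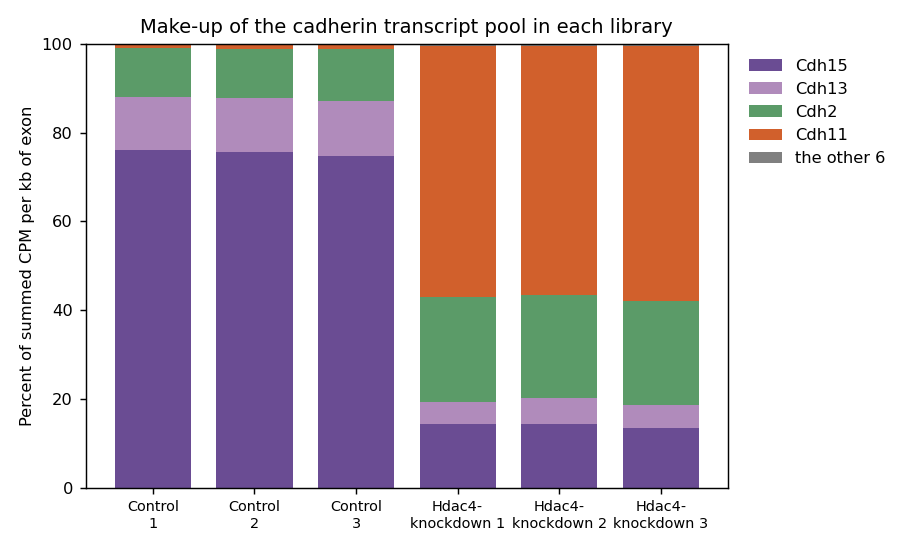
Percent of the summed level per kb of exon over the 10 cadherin genes that came from each gene, as 1 bar per library, with the 6 genes of lowest level as 1 segment. Cdh15 makes up 74.9% to 76.1% of the bar in Control libraries and 13.4% to 14.5% in Hdac4-knockdown libraries, and Cdh11 0.938% to 1.12% and 56.1% to 57.3%.

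Summed over the 10 genes, the level was 120 ± 2.61 CPM per kb in Control and 81.5 ± 1.42 CPM per kb in knockdown libraries (SD, n = 3 each). Cdh15 contributed 76.1%, 75.8% and 74.9% of this sum in the 3 Control libraries and 14.3%, 14.5% and 13.4% in the 3 knockdown libraries. Cdh11 contributed 0.938%, 1.06% and 1.12% in Control and 56.6%, 56.1% and 57.3% in knockdown libraries. The plot of percent by library shows these shares as nearly constant within each group. Cdh2 went from 11.2% ± 0.363 to 23.4% ± 0.219 and Cdh13 from 12.1% ± 0.229 to 5.36% ± 0.395 (SD, n = 3 each). With the longest transcript as length, Cdh13 made up 23.7% in Control and 8.42% in knockdown libraries, Cdh15 made up 8.99% in knockdown libraries, and Cdh10 went from 0.0159% to 0.450%. The ratio of Cdh11 to Cdh15 per kb was 0.0123, 0.0140 and 0.0149 in Control and 3.95, 3.88 and 4.26 in knockdown libraries. The sum depends on the scale, since without division by length the 10 genes summed to 561 to 588 CPM in Control and 640 to 664 CPM in knockdown libraries. The exon union of Cdh15 is 3251 bases, and that of Cdh11 is 8904 bases.

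The catenin genes were lower in knockdown cells as far as they were tested. Of 10 catenin genes, 7 were tested and all 7 were called lower, against 37.1% of all tested genes, with a median log2 fold change of -0.75 against 0.014. Jup, plakoglobin, fell most, from 2636, 2759 and 2595 counts in Control to 414, 506 and 409 counts in knockdown libraries, a log2 fold change of -2.66 (SE 0.0643, edgeR adjusted p = 4.43e-18). Arvcf, a relative of p120-catenin, fell by 1.55, Ctnnd1 (p120-catenin) by 0.75, Ctnna1 (alpha-E-catenin) by 0.42 and Ctnnb1 (beta-catenin) by 0.18 on the log2 scale. Ctnnd1, the gene at the median, shares 4482 of its 7319 exon bases with Gm28635. Reads shared by genes were left out, so its value rests on part of the gene. Ctnnb1 and Jup bind the same part of the cadherin tail, and the ratio of Ctnnb1 to Jup per kb was 8.09 ± 0.25 in Control and 45.1 ± 2.53 in knockdown libraries (SD, n = 3 each). Ctnna2, alpha-N-catenin, was at 0 in every library.

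Of 9 actin linkers, 7 were lower, 1 was higher and 1 was not called, against 37.1% lower and 38% higher of all tested genes. Their median log2 fold change was -0.39, against 0.014. Tes (testin) fell by 1.38, Zyx (zyxin) by 1.25 and Vcl (vinculin), which is recruited to alpha-catenin under tension, by 0.99 on the log2 scale. Afdn (afadin), which joins nectins to actin, rose by 0.70. Actn1 had a log2 fold change of -0.07 (edgeR adjusted p = 0.0853), which turned to 0.016 with upper quartile scaling, and was called lower under 4 alternatives, among them DESeq2 (adjusted p = 0.0420). The nectins, immunoglobulin-type adhesion molecules of the same junctions, were split. Nectin2 fell by 2.37 and Pvr by 1.12, Nectin3 rose by 0.58, and Nectin1 had a log2 fold change of 0.13 (edgeR adjusted p = 0.0909) and was called higher under 4 alternatives, among them library size alone (adjusted p = 0.0180).

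Among 13 other cadherin genes, 7 were tested, 3 were higher, 2 were lower and 2 were not called, against 38% higher and 37.1% lower of all tested genes. Cdh22 and Cdh26 passed the filter only through their knockdown counts, so they could only be called higher. Cdh18, a type II cadherin of neurons, fell from 838, 846 and 801 counts to 150, 166 and 197 counts, a log2 fold change of -2.34, and Cdh24 fell by 0.73. Cdh19, known from nerve-associated cells of the neural crest, rose from 14, 15 and 10 counts to 161, 132 and 116 counts, a log2 fold change of 3.31, and Cdh22 rose from 1, 9 and 1 counts to 38, 45 and 33 counts. Cdh26 had 2, 1 and 0 counts in Control and 67, 93 and 63 counts in knockdown libraries, a count ratio of 70.9 with a counting interval of 24.0 to 347. Cdh17 and Cdh23 had log2 fold changes of -0.32 (edgeR adjusted p = 0.230) and -0.42 (edgeR adjusted p = 0.0727). Cdh23 was called lower without Control replicate 1 (adjusted p = 0.0187) or without Hdac4-knockdown replicate 2 (adjusted p = 0.0461). Cdh8, Cdh16 and Cdh20 were at 0 in every library.

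**Figure D3:**
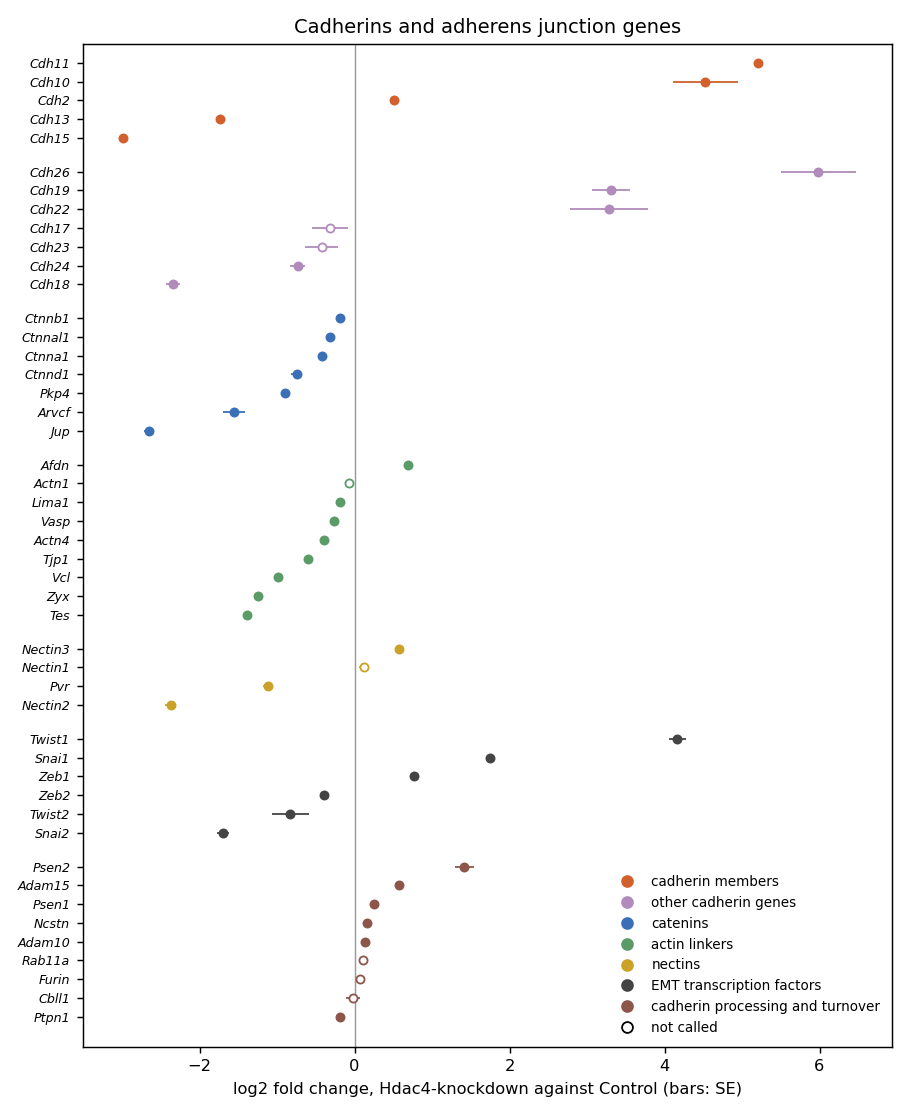
Log2 fold change of Hdac4-knockdown against Control libraries for each tested cadherin gene and each tested gene of 6 adherens junction lists, 1 point per gene with its standard error as a bar and open points for genes not called. Members run from -2.99 for Cdh15 to 5.21 for Cdh11, whereas all 7 catenins lie left of 0, from -2.66 for Jup to -0.18 for Ctnnb1.

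The transcription factors known to repress Cdh1 and to accompany mesenchymal cadherin patterns were likewise split, with 3 of 6 higher and 3 lower. Twist1 was counted 52, 64 and 64 times in Control and 1052, 1269 and 1072 times in knockdown libraries, a log2 fold change of 4.16 (SE 0.107, edgeR adjusted p = 1.15e-17). Snai1 rose by 1.75 and Zeb1 by 0.77 on the log2 scale. Snai2 fell by 1.70, Twist2 by 0.83 and Zeb2 by 0.39. Of 9 genes for cadherin processing and turnover, 5 were higher and 1 was lower, mostly by little. Psen2, a subunit of gamma-secretase, rose by 1.41, and Adam10, the main sheddase of Cdh1 and Cdh2, rose by 0.14 (edgeR adjusted p = 0.0111), a call lost without Control replicate 2 (adjusted p = 0.0735) or Control replicate 3 (adjusted p = 0.0651). Ptpn1, a phosphatase that acts at the Cdh2 tail, fell by 0.19, a call lost with upper quartile scaling (edgeR adjusted p = 0.111). Furin, Rab11a and Cbll1 were not called, but Furin and Rab11a were called higher with library size alone (edgeR adjusted p = 0.00903 and 0.00736), with upper quartile scaling and with at least 10 counts in every library. The plot of log2 fold changes shows cadherin genes on both sides of 0 and catenins on the lower side only. Over the 6 lists, 42 of 52 genes were tested, of which 31% were higher and 52.4% lower, against 38% and 37.1% of all tested genes, with a median log2 fold change of -0.23 against 0.014.

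Of the 10 cadherin genes, 6 lie on chromosome 8 (Cdh1, Cdh3, Cdh5, Cdh11, Cdh13 and Cdh15), and they did not move together. On that chromosome 41.5% of 779 tested genes were higher and 29.8% lower. Within 1000 kb of the start of Cdh15, 44 other genes were tested, of which 25 were higher, 6 lower and 13 not called, with a median log2 fold change of 0.22. Cdh15, at -2.99, was below all of them, and the closest values were those of Rhou (-2.84) and Cbfa2t3 (-2.62). The nearest start site, that of Gm16378, lay at -6.235 kb, upstream, and this gene had a log2 fold change of -0.39 (edgeR adjusted p = 0.0596). The surroundings of Cdh11 and Cdh13 hold few tested genes. For Cdh13 these were Plcg2 (-2.90) and Mphosph6 (-0.23), both called lower. For Cdh11 they were Gm8730, which was not called, and Gm45257, a gene model of uncertain status inside the Cdh11 gene on the same strand with no shared exon, which had 0 counts in each Control library and 17 to 38 in knockdown libraries. Cdh2 lies at chr18:16588877-16809246, where neither tested neighbour was called, and Cdh10 at chr15:18818947-19014236 had no tested neighbour.

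**Figure D4:**
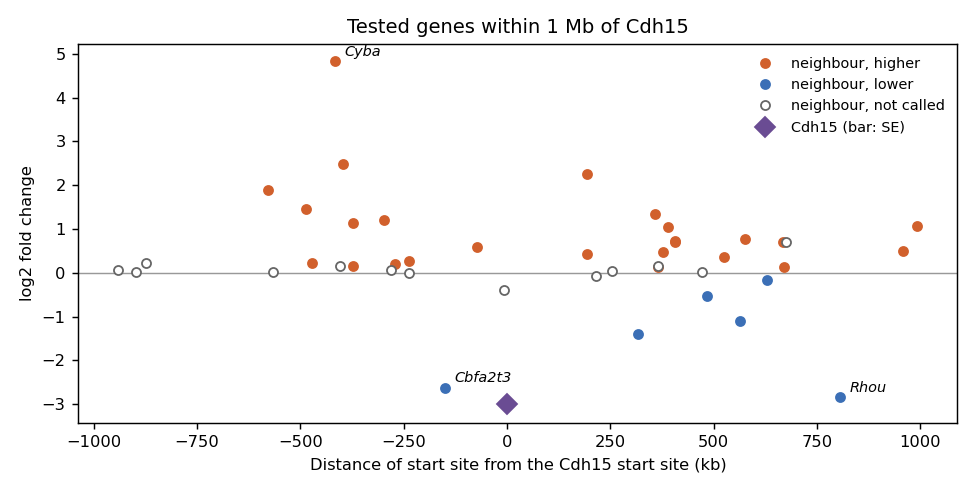
Log2 fold change of tested genes within 1000 kb of Cdh15 against the distance of their start site from that of Cdh15 in kb, with genes called higher in orange, lower in blue, not called as open points and Cdh15 as a diamond. Cdh15 lies at -2.99 among neighbours that run from -2.84 (Rhou) to 4.83 (Cyba), 25 of 44 of them higher.

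The genes whose level over the 6 libraries was most like that of Cdh15, the member with the highest mean level per kb, were Rhob, Tnc and Nid1, with Pearson correlations of log2 CPM of 0.999967, 0.999961 and 0.999935. All 3 were lower in knockdown libraries, by log2 fold changes of -2.38, -4.01 and -2.43. With 3 libraries in each of 2 groups, such values describe mainly the step between groups, and 1383 of 10823 genes compared had a correlation above 0.99.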

How the data were processed

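Poly-A RNA was sequenced paired-end with a kit that keeps no strand. The authors deposited raw counts per Ensembl gene, and the submitters' processing notes name FastQC, STAR 2.7.3a, HTSeq 0.12.4 and mm10; the annotation release was not given in the sources used here. Reads outside genes, reads shared by genes and reads aligned to several places (3.17% to 5.07%, 5.84% to 6.51% and 3.88% to 4.77% of counted pairs and these classes) were left out. Symbols, positions and exon lengths came from GENCODE M21 (GRCm38), which named 53620 of 53801 identifiers.

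The study names no test for its differentially expressed genes and reports fewer of them than were called here. The groups were tested by the quasi-likelihood method of edgeR 4.0.16, run in R 4.3.3, after TMM scaling and the default filterByExpr. P-values were adjusted by Benjamini-Hochberg over 14531 genes. Calls were made at adjusted p below 0.05 and log2 fold change beyond 0.05, the thresholds the study states for its differentially expressed genes. Each standard error (SE) was derived from this test, as the absolute log2 fold change divided by the square root of its F statistic. Exact permutation tests were two-sided. Libraries of a group differed beyond sampling noise (chi-square per degree of freedom 3.39 to 9.40), so all 6 were kept as separate samples. At this depth, 3 counts correspond to 0.0931 to 0.105 CPM.

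The cadherin genes, the other lists and the tests were chosen with earlier results of these data known. Named genes were every cadherin member, Hdac4, the genes of the lists with the largest and smallest changes first, markers at 0, and the 3 genes most correlated with the highest member. Neighbouring genes within 1000 kb were described after their values were seen. No cadherin member shares exon bases with another gene, whereas Hdac4 shares 3536 of 15813 with Gm26720. Among the list genes, Ctnnd1 shares 4482 of 7319 with Gm28635, Twist2 1477 of 3174 with Gm29100 and Vcl 2090 of 8191 with Ap3m1. Some other list genes share a smaller part. Alternatives were other scalings, filters, fold change thresholds, DESeq2 1.42.0, limma-voom (limma 3.58.1), a replicate block, the longest transcript as length, and each library left out. The values of 1 neural and glial marker gene are not reported here. Figures were drawn with matplotlib 3.10.9.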

Additional observations from a re-analysis of the deposited data

Results flagged for a closer look

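A signal outside the gene counts differed between the groups. Reads that fell outside annotated genes made up a mean of 4.79% of the counted classes in Hdac4-knockdown libraries and 3.277% in Control libraries, with 5.07%, 4.64% and 4.66% in the knockdown libraries and 3.41%, 3.17% and 3.25% in the Control libraries. All 3 knockdown libraries were above all 3 Control libraries. These reads enter no cadherin value, and their part in the results was not tested.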

How the results depend on the processing

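The 5 cadherin genes that were tested kept their direction and their call under every alternative scaling, filter, tool and left-out library in which they were tested, with log2 fold changes of 0.46 to 0.59 for Cdh2, 4.13 to 4.89 for Cdh10, 5.12 to 5.30 for Cdh11, -1.78 to -1.65 for Cdh13 and -3.01 to -2.90 for Cdh15. At a fold change threshold of 1, Cdh2 was no longer called, which left 2 members higher and 2 lower. Cdh10 had no value where every library had to reach 10 counts. With no filter beyond 1 count, and with DESeq2, 5 members were called higher, as Cdh4 and Cdh5 were added (DESeq2 adjusted p = 0.0426 and 0.0210). Over all genes, 3579 were higher and 2879 lower beyond a log2 fold change of 0.5, and 2397 and 1543 beyond 1. Of the adherens junction lists, 14 genes were lower beyond 0.5, and 6 were higher and 8 lower beyond 1. With at least 10 counts in every library, 3 osteoblast markers and 2 of the epithelial, endothelial, neural and glial markers were higher, fewer genes being tested, and 0 osteoblast markers were lower beyond 1, Spp1 having a smaller change. With the longest transcript as length, the percent of the cadherin sum in Control was 60.1 for Cdh15, 23.7 for Cdh13, 14.85 for Cdh2, 1.30 for Cdh11 and 0.0159 for Cdh10, and in knockdown libraries 24.9 for Cdh2, 8.99 for Cdh15, 8.42 for Cdh13 and 0.450 for Cdh10. The order of the tested members by mean was unchanged, but Cdh15 and Cdh13 then overlapped in knockdown libraries. Changes of sign were seen for values that were not called: Actn1 with upper quartile scaling (0.016), Cbll1 with library size alone (0.036), upper quartile scaling (0.068), at least 10 counts in every library (0.017), without Control replicate 3 (0.050) or without Hdac4-knockdown replicate 2 (0.0036), and Krt8 without Hdac4-knockdown replicate 1 (-0.11), where the cause was not tested. With 1 library left out in turn, Cbll1 ran from -0.099 to 0.050 and Krt8 from -0.11 to 0.45. The median log2 fold change of all genes was 0.10 with upper quartile scaling and 0.071 with library size alone, against 0.014. The replicate numbers did not pair the groups (correlations of deviations of same-numbered libraries -0.00523, 0.0956 and 0.0206), and with the number as a block 3 members were higher and 2 lower, as without it. The depth limits Cdh1, Cdh3, Cdh4, Cdh5 and Cdh6, each at 13 counts or fewer per library.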
